A study of Mus musculus with 2 samples.

Results

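Secondary granule genes encode the cargo and membrane proteins of the specific granules of neutrophils, and 9 of them were followed here: *Ltf*, *Camp*, *Ngp*, *Lcn2*, *Chil3*, *Fcnb*, *Cd177*, *Pglyrp1* and *Lyz2*. They were taken by symbol from the 32285 genes listed in the count matrices of mouse bone marrow, and 9 of 9 were found. Droplet-based 3′ scRNA-seq was available for 1 library from control mice (Ctrl) and 1 library from *Map4k4*-cKO mice (cKO), each loaded as 2 parts of c-Kit-enriched cells to 3 parts of red-cell-lysed whole marrow. The cKO mice were Mx1-Cre *Map4k4* f/f, and the controls are written in the study's methods as Mx1-Cre *Map4k4*-/-, with the minus sign not explained further. Both were littermates on a C57BL/6 background, aged 13 to 14 weeks. Floxed alleles were deleted in the cKO mice by injections of poly I:C some weeks before the experiments. The methods do not say whether the controls were injected too. Mx1-Cre responds to interferon, acts in more than the neutrophil lineage, and was present in both groups. The number of mice behind each library is not given in the sources used here, so a difference between the libraries cannot be set against a spread between replicates, and p-values are left out.

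Neutrophils load their granules in the order in which the contents are made. Promyelocytes make the primary granule proteases and myeloperoxidase, myelocytes and metamyelocytes make the secondary granule proteins, and later cells make gelatinase granules and then secretory vesicles. Transcription of secondary granule genes is known to depend on C/EBP factors, above all C/EBPε, and most of these transcripts decline before a neutrophil leaves the marrow. Lysozyme and the peptidoglycan recognition protein are found in more than 1 kind of granule, and lysozyme is also made by monocytes and macrophages.

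The library labelled Ctrl gave 9965 cells with a median of 4111 UMIs (unique molecular identifiers, each tagging 1 captured RNA molecule), and the library labelled cKO gave 6718 cells with a median of 6243.5 UMIs. Cells under 1000 UMIs made up 11.7% of Ctrl and 20.4% of cKO. The targeted gene, *Map4k4*, had 72.6 CPM (counts per 1000000 UMIs) in Ctrl and 64.3 CPM in cKO, a log2 ratio of -0.17 (95% interval from counting error, -0.23 to -0.12). The study reports from RT-PCR that stem and progenitor cells lost this transcript after poly I:C. The CPM values pool all kept cells of a library, of every class, so they differ from that RT-PCR in cells and in measure. They do not decide whether stem and progenitor cells lost the transcript. In these pooled counts the targeted gene separated the libraries little, so each direction below rests on the libraries' labels. Of the kept barcodes, 2949 occur in both libraries, and 10.7% of these fell in the same class in both, against 9.87% given by the class shares alone. Cells were classed by gates on 17 lists of marker genes that contain 0 of the 9 genes. The gates put 5608 Ctrl and 4714 cKO cells into 6 classes along the neutrophil line, named from early to late ProNeu-like, ProNeu/PreNeu, PreNeu-like, imNeu-like, imNeu/mNeu and mNeu-like after the study's stage names. A further 2709 Ctrl and 614 cKO cells fell into 12 other classes, and 1648 and 1390 cells stayed unclassed. The 10 leading genes of each class held markers of the lists that gated it, except in plasma cell-like cells, which were led by immunoglobulin genes. In PreNeu-like cells *Orm1* was the 1 such marker, and *Chil3*, *Camp*, *Ngp* and *Fcnb* were themselves among the leading genes. Within the boundary classes many cells lay near a cut: 51.2% of Ctrl and 62.9% of cKO imNeu/mNeu cells, and 87.2% and 70.5% of ProNeu/PreNeu cells, changed class when every cut was moved by 25%.

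*Camp*, *Ngp* and *Ltf* lie close together on chromosome 9 of GRCm38. *Camp* (ENSMUSG00000038357), which encodes the cathelicidin antimicrobial peptide, spans chr9:109847379-109849617 on the minus strand with 4 exons. *Ngp* (ENSMUSG00000032484), which encodes a cystatin-like granule protein, spans chr9:110419747-110423012 on the plus strand with 4 exons, 0.570 megabases further on. *Ltf* (ENSMUSG00000032496), which encodes the iron-binding protein lactoferrin, spans chr9:111019271-111042767 on the plus strand with 17 exons, after another 0.596 megabases. The stretches between them hold 8 and 20 other protein-coding genes. *Fcnb* (ENSMUSG00000026835) and *Lcn2* (ENSMUSG00000026822) share chromosome 2, 4.30 megabases apart, *Pglyrp1* (ENSMUSG00000030413) and *Cd177* (ENSMUSG00000052212) share chromosome 7, 5.85 megabases apart, and *Chil3* (ENSMUSG00000040809) and *Lyz2* (ENSMUSG00000069516) lie on chromosomes 3 and 10. GENCODE vM21 places no other gene across any of the 9.

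The 250 bases before the RefSeq start of *Fcnb*, *Chil3*, *Ltf* and *Cd177* are shown because these genes span the order of expression described below, from the earliest to nearly the latest. They come from RefSeq on GRCm38.p6, are written 5′ to 3′ on the strand of the gene, and cover chr2:28084879-28085128 (minus strand), chr3:106167565-106167814 (minus strand), chr9:111019042-111019291 (plus strand) and chr7:24760312-24760561 (minus strand). Capitals mark matches, on either strand, to TTNCNNAA, letters found in many C/EBP binding sites.
Fcnb: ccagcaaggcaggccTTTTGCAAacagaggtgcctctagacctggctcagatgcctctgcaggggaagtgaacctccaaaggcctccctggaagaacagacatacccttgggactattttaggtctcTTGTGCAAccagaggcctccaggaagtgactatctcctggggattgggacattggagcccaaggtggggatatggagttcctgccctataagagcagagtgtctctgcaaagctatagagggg
Chil3: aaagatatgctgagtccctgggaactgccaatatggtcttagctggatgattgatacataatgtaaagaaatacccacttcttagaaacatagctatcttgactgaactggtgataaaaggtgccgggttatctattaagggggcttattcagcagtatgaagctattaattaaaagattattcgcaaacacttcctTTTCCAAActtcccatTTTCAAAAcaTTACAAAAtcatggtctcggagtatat
Ltf: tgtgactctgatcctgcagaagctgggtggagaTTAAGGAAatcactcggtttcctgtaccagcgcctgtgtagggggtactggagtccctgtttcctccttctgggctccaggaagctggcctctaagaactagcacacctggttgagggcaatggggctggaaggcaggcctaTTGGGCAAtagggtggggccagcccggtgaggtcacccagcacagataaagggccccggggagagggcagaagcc
Cd177: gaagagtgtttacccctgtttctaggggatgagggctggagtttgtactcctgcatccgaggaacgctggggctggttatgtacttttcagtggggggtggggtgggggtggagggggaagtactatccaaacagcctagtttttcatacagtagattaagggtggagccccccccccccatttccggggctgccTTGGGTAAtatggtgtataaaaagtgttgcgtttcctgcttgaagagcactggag
The match lay 235 and 123 bases before the start of *Fcnb*, 53, 37 and 27 bases before that of *Chil3*, 217 and 75 bases before that of *Ltf*, and 55 bases before that of *Cd177*. Of the 9 windows, 7 held these letters, with *Camp* and *Pglyrp1* the exceptions, against 36.8% of 32851 windows of the same length before all RefSeq starts. The letters GAGGAA, part of many PU.1 sites, were in 4 of 9 windows and in 23.3% of all windows. Except for *Chil3* and *Cd177*, the RefSeq starts lie inside the genes as GENCODE draws them, by the most for *Pglyrp1*, so the other annotation would move those windows. These matches describe letters and were not tested for binding.

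The 9 genes together took under 1% of the UMIs at the start of the neutrophil line, over 15% in its middle and under 5% at its end. In ProNeu-like cells they gave 0.657% of UMIs in Ctrl (95% Clopper-Pearson interval, 0.653 to 0.661) and 0.551% in cKO (0.547 to 0.555). The share was 4.72% and 5.23% in ProNeu/PreNeu, 14.2% and 15.1% in PreNeu-like, and highest at 15.7% and 17.5% in imNeu-like cells. It was 11.3% and 13.4% in imNeu/mNeu and 3.56% and 4.62% in mNeu-like cells. Intervals here and below cover counting error only. In UMIs per cell, which no scaling changes, the 9 genes summed to 782 in Ctrl and 1716 in cKO in imNeu-like cells, and to 95.8 and 315 in mNeu-like cells, where total UMIs per cell were also higher in cKO (medians 2354.5 and 6406).

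**Figure D1:**
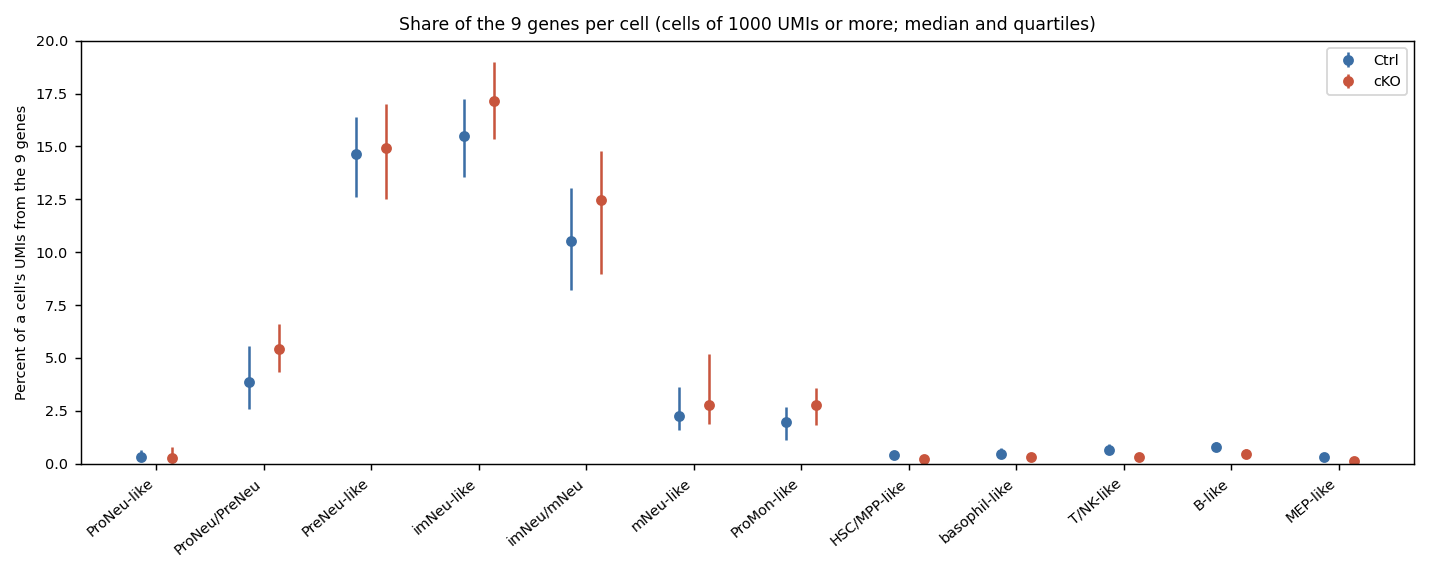
Percent of each cell's UMIs that came from the 9 genes, by cell class, for cells of 1000 UMIs or more (points, median over cells; bars, quartiles; blue, Ctrl; red, cKO). The medians reached 15.5% in Ctrl and 17.1% in cKO in imNeu-like cells and stayed at 0.784% or below in the lymphoid and erythroid classes drawn.

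Cells outside the neutrophil line also held UMIs of the 9 genes, at a low level that serves as the background. Over 1302 Ctrl and 143 cKO lymphoid and erythroid cells (ProB-like, B-like, T/NK-like, MEP-like and ProEry-like), *Camp* stood at 1233 CPM in Ctrl (1212 to 1254) and 758 CPM in cKO (729 to 789), and *Ltf* at 470 and 236 CPM. Single Ctrl classes of the 5 ranged from 969 to 2431 CPM for *Camp* and from 365 to 865 CPM for *Ltf*. Over the 5 Ctrl classes *Camp* gave 26.4% to 29.97% of these UMIs, *Ngp* 27.6% to 28.7%, *Lcn2* 11.5% to 12.9%, *Ltf* 10.3% to 12.0%, *Lyz2* 8.47% to 9.37% and *Chil3* 6.01% to 6.40%. The shares of *Pglyrp1* (2.56% to 4.19%), *Cd177* (1.19% to 1.701%) and *Fcnb* (0.819% to 1.24%) varied more. In cKO, 1 MEP-like cell gave 31.3% of the pooled UMIs of the 9 genes, from 18.6% for *Ltf* to 38.2% for *Camp*, 44.6% for *Fcnb* and 53.7% for *Chil3*. Without this cell, left out after seeing the data, the cKO background was 479 in place of 758 CPM for *Camp*, 73.8 in place of 156 CPM for *Chil3*, 11.5 in place of 20.3 CPM for *Fcnb* and 196 in place of 236 CPM for *Ltf*. In Ctrl the highest such cell gave 3.08%. A level near these values is read below as background and not as expression.

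*Fcnb*, which encodes ficolin B, a lectin of the complement system, came first. Its level was 609 CPM in Ctrl (597 to 622) and 558 CPM in cKO (546 to 571) in ProNeu-like cells, against backgrounds of 50.5 and 20.3 CPM. It was highest in ProNeu/PreNeu, at 2752 CPM (2659 to 2848) and 2464 CPM (2400 to 2530), and was 1359 and 1311 CPM in PreNeu-like and 390 and 392 CPM in imNeu-like cells. In mNeu-like cells it was 63.3 CPM in Ctrl (56.5 to 70.7) and 21.8 CPM in cKO (19.0 to 24.9), within the 43.5 to 84.7 CPM and 17.8 to 79.5 CPM of the background classes of each library. *Fcnb* was the least like the mean of the 9 genes across cell classes (Pearson's r of 0.59 over 27 points, each a class in a library, on log2 of CPM plus 1), while *Ngp* was the most like it (r of 0.98).

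*Camp* and *Chil3*, which encodes a chitinase-like lectin, were highest in PreNeu-like cells, whose gate requires cell-cycle genes. *Camp* was 60412 CPM in Ctrl (60281 to 60544) and 56018 CPM in cKO (55896 to 56142), so that this gene alone gave about 6 in 100 UMIs. Its level in imNeu-like cells was 1.07 times lower in each library, at 56389 and 52466 CPM. *Chil3* was 9170 CPM in Ctrl and 8155 CPM in cKO in PreNeu-like cells, 6828 and 6070 CPM in imNeu-like cells, and 571 and 369 CPM in mNeu-like cells.

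*Ngp* and *Lcn2* were highest in imNeu-like cells, which lack cell-cycle markers. *Ngp* stood at 40346 CPM in Ctrl (40148 to 40545) and 49717 CPM in cKO (49538 to 49898). *Lcn2*, which encodes the siderophore-binding lipocalin 2, stood at 16366 CPM (16240 to 16493) and 22779 CPM (22657 to 22901). *Lyz2*, which encodes lysozyme, was 14925 CPM in Ctrl and 20420 CPM in cKO there.

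*Ltf* and *Cd177* stayed near their highest level from imNeu-like to imNeu/mNeu cells. *Ltf* was 16709 CPM (16582 to 16837) and then 16214 CPM (16051 to 16378) in Ctrl, and 16338 CPM (16234 to 16441) and then 16527 CPM (16414 to 16641) in cKO, where the 2 intervals overlapped. In ProNeu-like cells *Ltf* was 230 CPM in Ctrl and 144 CPM in cKO, below the background of 470 and 236 CPM. In ProNeu/PreNeu it was 721 CPM in Ctrl, within the 365 to 865 CPM of the Ctrl background classes, and 681 CPM in cKO (648 to 716), above the 222 to 509 CPM of the cKO ones. In PreNeu-like cells it was far above both, at 9862 and 9159 CPM. *Cd177*, which encodes a surface protein of neutrophils, was 2022 CPM in Ctrl and 2027 CPM in cKO in imNeu-like cells, 2016 and 1945 CPM in imNeu/mNeu, where the intervals of these neighbours overlapped in Ctrl and not in cKO, and still 1164 and 1331 CPM in mNeu-like cells.

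*Pglyrp1*, which encodes a peptidoglycan recognition protein, was spread most evenly. Its CPM was 605 in Ctrl and 773 in cKO in ProNeu-like cells, 2968 and 3961 in PreNeu-like, 3334 and 4440 in imNeu-like, 3424 and 4644 in imNeu/mNeu, and 3141 and 4390 in mNeu-like cells. The order of the last 3 classes did not settle, since the intervals of imNeu-like and imNeu/mNeu overlapped in Ctrl and those of imNeu-like and mNeu-like overlapped in cKO.

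**Figure D2:**
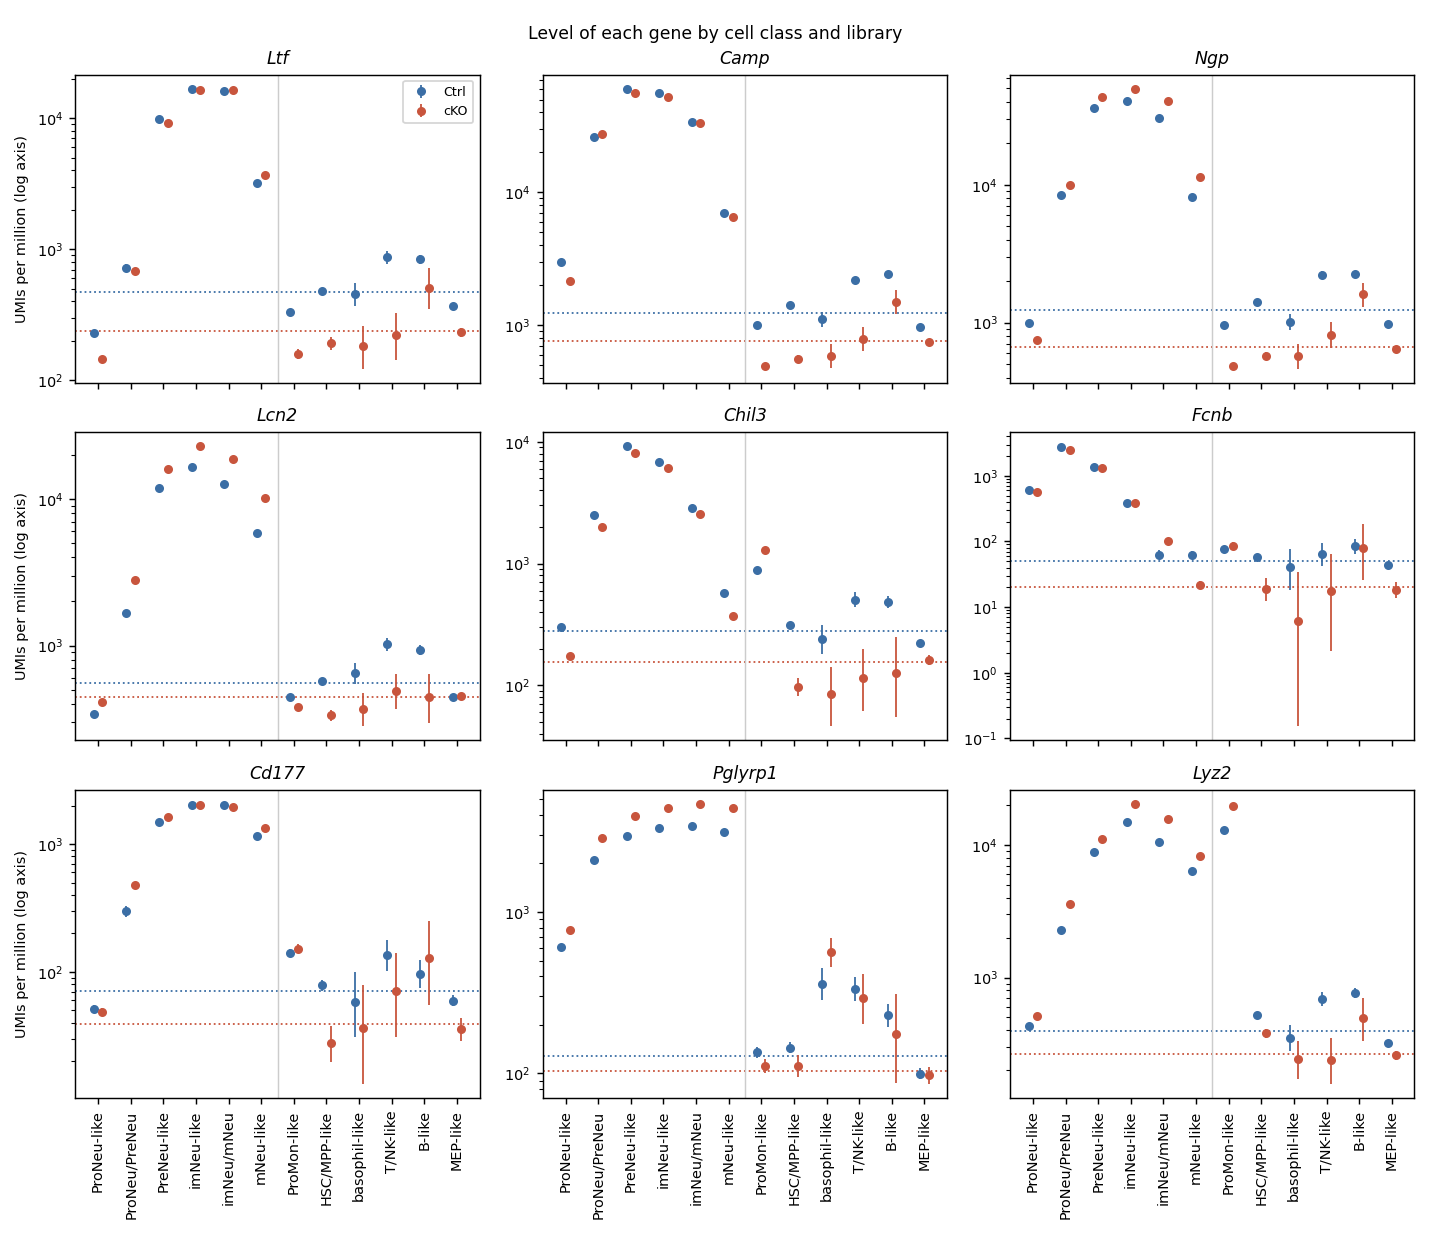
CPM of each gene (log axis) in 12 cell classes, with 95% exact Poisson intervals (blue, Ctrl; red, cKO; dotted lines, the level in lymphoid and erythroid cells of the same library; grey line, end of the neutrophil line). *Fcnb* is highest in ProNeu/PreNeu, *Camp* and *Chil3* in PreNeu-like, *Ngp* and *Lcn2* in imNeu-like cells, and *Pglyrp1* stays at 3141 CPM or more from imNeu-like to mNeu-like cells.

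A similar succession appeared when the neutrophil-line cells were ordered one by one. This order uses late and early markers, as the gates do, so it is not independent of the classes. All 10322 cells were ranked by late against early marker UMIs and cut into 10 groups of equal size. *Fcnb* was highest in the third group in both libraries (1635 CPM in Ctrl and 1805 CPM in cKO), and its centre, the mean position weighted by CPM, lay at 26.6% of the order in Ctrl and 26.1% in cKO. The centres of *Chil3* lay at 40.04% and 41.8%, of *Camp* at 42.5% and 44.8%, and of *Ngp* at 47.1% and 50.5%. They lay at 50.8% and 55.7% for *Ltf*, 52.7% and 55.2% for *Lcn2*, 55.3% and 55.7% for *Lyz2*, 56.3% and 57.1% for *Cd177* and 57.4% and 57.0% for *Pglyrp1*. In the last group *Chil3* kept 3.41% of its highest level in Ctrl and 2.02% in cKO, *Camp* 6.03% and 5.16%, *Ltf* 8.76% and 8.27%, and *Ngp* 12.9% and 12.7%. *Lcn2* kept 39.3% and 40.5%, *Cd177* 54.1% and 54.6%, *Lyz2* 56.4% and 44.5%, and *Pglyrp1* 100% and 87.6%. *Fcnb* kept 3.58% and 0.901%. Its last-group levels, 58.6 CPM in Ctrl and 16.3 CPM in cKO, lay within or below the range of the background classes. *Chil3* there was 339 CPM in Ctrl, within the 225 to 505 CPM of the Ctrl background classes. In cKO it was 193 CPM, above the 112 to 162 CPM of the cKO ones. The last-group values of *Fcnb*, and of *Chil3* in Ctrl, are thus read as background. From the gene that kept least to the gene that kept most, the order was the same in both libraries, except that *Fcnb* and *Chil3* changed places, and so did *Cd177* and *Lyz2*.

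**Figure D3:**
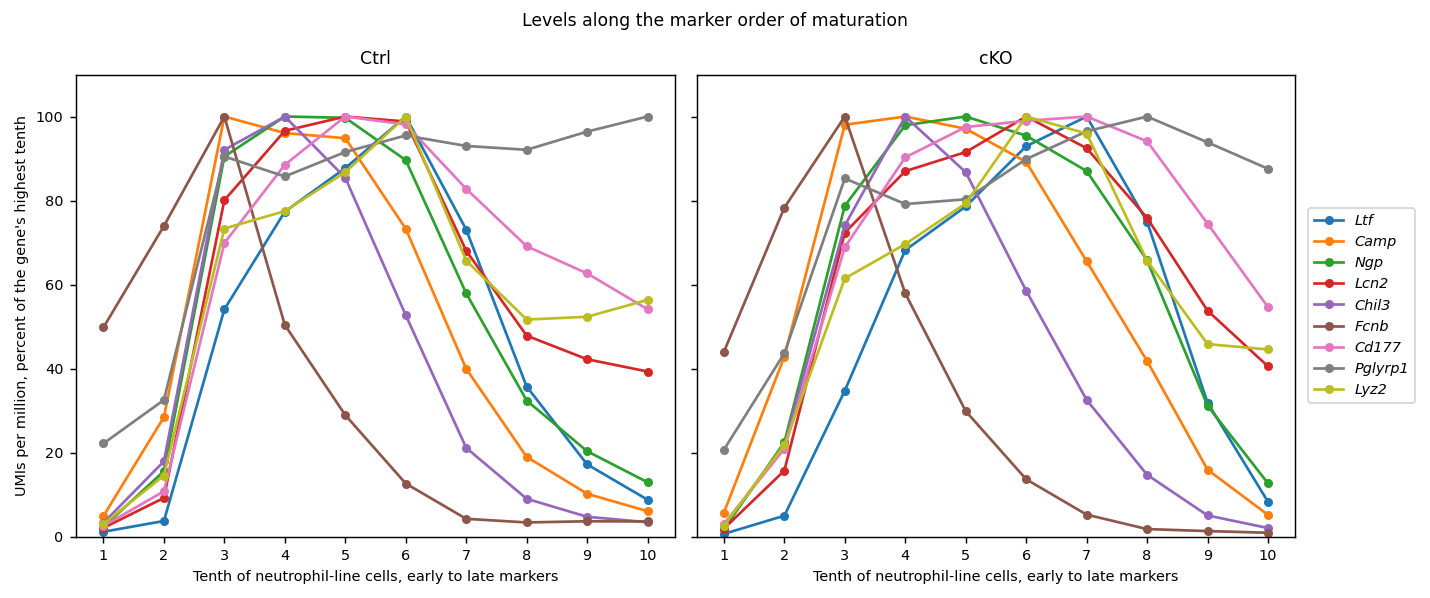
Level of each gene in 10 equal groups of neutrophil-line cells ordered from early to late markers, as percent of the gene's highest group (left, Ctrl; right, cKO). *Fcnb* is at 100% in the third group, *Camp*, *Chil3* and *Ngp* follow in groups 3 to 5, and *Pglyrp1* stays at 87.6% or more from group 8 on in both libraries.

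The share of cells with a UMI of each gene was compared after every cell was thinned to 1000 UMIs. In imNeu-like cells (738 of 794 Ctrl and 497 of 599 cKO cells were deep enough), *Camp*, *Ngp*, *Lcn2*, *Ltf* and *Lyz2* were each detected in 99.6% or more of the cells of either library. *Fcnb* was detected in 25.5% of these Ctrl cells (22.4 to 28.8) and 24.5% of the cKO cells (20.8 to 28.6), and in 55.0% and 55.5% of PreNeu-like cells. Without thinning the *Fcnb* shares in imNeu-like cells were 57.2% and 62.3%, and those in lymphoid and erythroid cells 27.8% and 21.0%. The share for *Fcnb* in thinned lymphoid and erythroid cells was 6.99% in Ctrl and 2.24% in cKO, while that for *Camp* was 73.7% and 41.0%, so for *Camp* the share of cells with a UMI separated expression from background poorly. Median depths before thinning were 4588.5 and 9698 UMIs in imNeu-like and 3163 and 10763 UMIs in lymphoid and erythroid cells. The median thinned PreNeu-like cell held UMIs of 8 of the 9 genes in both libraries, and 34.9% of Ctrl and 39.1% of cKO cells held all 9.

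The make-up of the secondary granule RNA changed along the line. *Camp* gave 55.8% of the UMIs of the 9 genes in Ctrl ProNeu/PreNeu cells and 19.5% in mNeu-like cells, and in cKO 52.3% and 14.1%. *Lcn2* went from 3.53% to 16.5% in Ctrl and from 5.35% to 22.0% in cKO over the same classes. *Lyz2* went from 4.87% to 18.0% and from 6.82% to 17.9%, and *Pglyrp1* from 4.44% to 8.83% and from 5.54% to 9.51%. In the earlier ProNeu-like cells *Pglyrp1* gave 9.21% in Ctrl and 14.0% in cKO, and *Camp* gave 45.7% and 38.7%. The shares thus did not move in 1 direction over the whole line. Since 3′ libraries count each molecule once at its end, these shares are of molecules and were not divided by length.

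**Figure D4:**
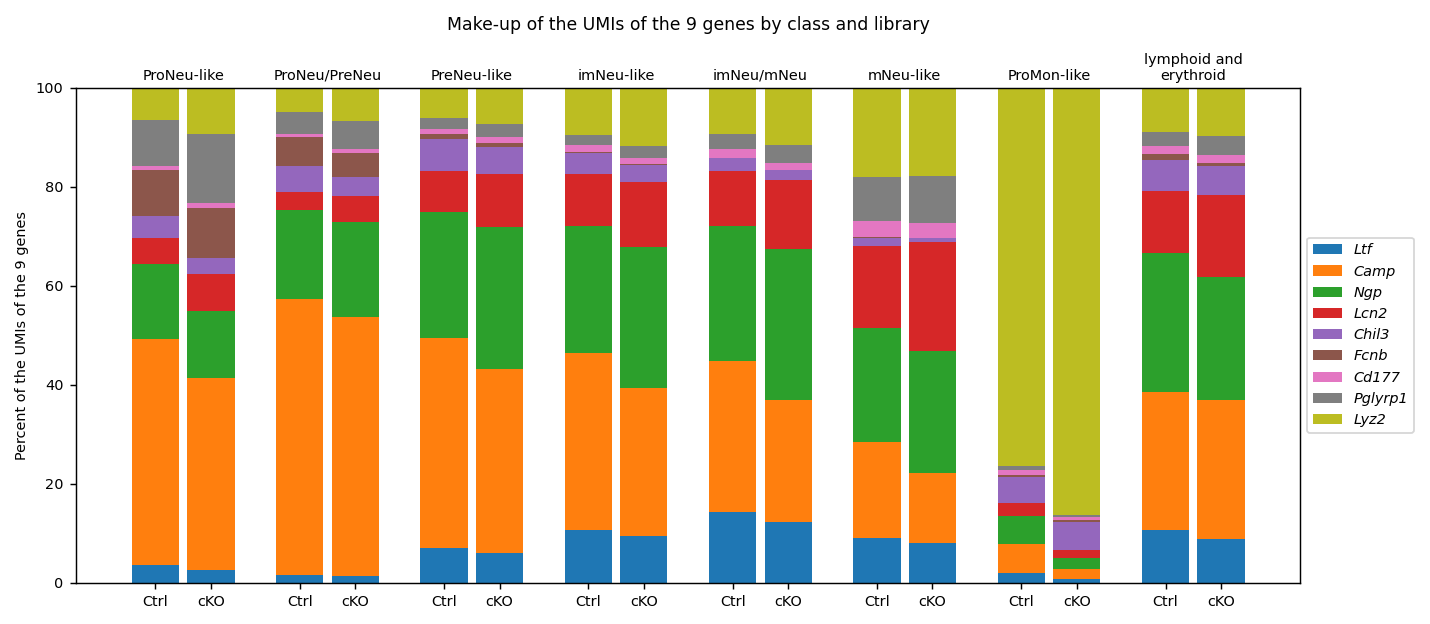
Percent of the UMIs of the 9 genes that each gene gave (stacked bars, each summing to 100%), by class and library. *Camp* shrinks from 55.8% in Ctrl ProNeu/PreNeu to 19.5% in Ctrl mNeu-like cells, and *Lyz2* fills 76.5% of the Ctrl and 86.3% of the cKO bar of ProMon-like cells.

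Outside the neutrophil line, some of the genes stood above the background. *Lyz2* reached 12897 CPM in Ctrl (12797 to 12998) and 19841 CPM in cKO (19700 to 19983) in ProMon-like cells, the monocyte progenitors, against 396 and 264 CPM in lymphoid and erythroid cells. These levels were the second highest of any class, 1.16 and 1.03 times below imNeu-like cells. *Chil3* in ProMon-like cells was 878 CPM (852 to 905) and 1295 CPM (1259 to 1331), against 279 and 156 CPM. *Pglyrp1* in basophil-like cells was 359 CPM in Ctrl (285 to 447, 30 cells) and 563 CPM in cKO (454 to 689, 16 cells), against 129 and 104 CPM. It gave 8.40% and 21.3% of the UMIs of the 9 genes there, above its 2.91% and 3.87% in the pooled lymphoid and erythroid cells, and no basophil-like cell held more than 17.5% of them in Ctrl or 12.9% in cKO. In T/NK-like cells, themselves 1 of the 5 background classes, *Pglyrp1* was 334 CPM in Ctrl and 293 CPM in cKO. Its share there was 4.19% and 9.59%. In UMIs per cell it was 1.13 and 1.74 there, beside 1.05 and 2.32 in the pooled background. The T/NK-like interval overlapped that of basophil-like cells in Ctrl (280 to 396 CPM) and not in cKO (202 to 412 CPM). *Cd177* and *Fcnb* in ProMon-like cells, at 141 and 77.8 CPM in Ctrl and 151 and 86.7 CPM in cKO, lay above the pooled background but close to its highest Ctrl class, at 136 and 84.7 CPM. *Camp*, *Ltf* and *Ngp* in ProMon-like cells lay below the pooled background in both libraries, except that *Camp* in cKO, at 491 CPM, did not without the 1 MEP-like cell. Macrophage-like cells were few and shallow (80 Ctrl and 17 cKO cells, with medians of 823.5 and 871 UMIs). In CPM several levels there stood above the background, at 4164 and 5973 for *Camp*, 1814 and 3873 for *Lyz2*, and 207 for *Fcnb* in Ctrl. In UMIs per cell the same levels lay below the pooled background. They were 5.54 and 5.35 for *Camp* beside 10.0 and 17.0, and 2.41 and 3.47 for *Lyz2* beside 3.23 and 5.90. *Fcnb* in Ctrl macrophage-like cells was 0.275 beside 0.411. *Camp* gave 30.4% and 28.7% of the UMIs of the 9 genes there, beside 27.8% and 28.2% in the pooled background. Near copies could take reads from 2 of the genes: *Lyz1* had 5.57 CPM and *Chil4* had 0 UMIs in Ctrl imNeu-like cells, so reads that match both copies of either pair remain uncertain.

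The libraries were then compared within each of the 6 neutrophil classes. The question was how the labelled loss of *Map4k4* went with the granule transcripts in cells that passed the same gates. A shared gate does not match the stage fully. In mNeu-like cells the median of the mNeu markers was 518 per 10000 UMIs in Ctrl and 651 in cKO. The median of the markers of precursor to immature neutrophils in these cells was also higher in cKO, at 94.2 and 145. The part of either difference in the ratios below was not tested. With 1 library per group the comparison is between 2 libraries. A gene was counted as higher or lower where its CPM differed by at least 1.5-fold. Among genes of 50 CPM or more in either library, the median log2 ratio of cKO over Ctrl was -0.15 in ProNeu-like, -0.19 in ProNeu/PreNeu, -0.20 in PreNeu-like, -0.25 in imNeu-like, -0.35 in imNeu/mNeu and -0.34 in mNeu-like cells. Counts of higher and lower genes, and some of the ratios, are therefore also given less this median. Ratios of CPM with no second value beside them still hold this shift.

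In ProNeu-like cells *Ltf* (230 CPM in Ctrl and 144 CPM in cKO, log2 ratio -0.68) and *Chil3* (304 and 176 CPM, -0.79) were lower by 1.5-fold, 2 of 9 beside 12.5% of 3005 genes, and 0 were higher, beside 0.799%. *Ltf* lay below the background there. *Chil3* in Ctrl lay near its pooled background of 279 CPM and within the 225 to 505 CPM of the Ctrl background classes. In cKO it lay near the pooled 156 CPM but above the 112 to 162 CPM of the cKO background classes. Without the 1 MEP-like cell the pooled cKO value was 73.8 CPM. The *Chil3* ratio thus sets a Ctrl level within the background against a cKO level above it. Neither ratio is read as a change in expression. *Camp* and *Ngp* differed by -0.50 and -0.40, and *Lcn2*, *Pglyrp1* and *Lyz2* by 0.27, 0.35 and 0.25. Of these, *Ngp* and *Lcn2* in both libraries and *Lyz2* in Ctrl lay within or below the range of the background classes. Relative to the median gene *Chil3* alone was lower, beside 4.56%, and 0 were higher, beside 3.13%. In ProNeu/PreNeu, *Lcn2* (1665 and 2797 CPM, 0.75), *Cd177* (297 and 474 CPM, 0.67) and *Lyz2* (2297 and 3567 CPM, 0.63) were higher, 3 of 9 beside 2.29% of 2668 genes, and 0 were lower, beside 21.7%. *Pglyrp1* joined them relative to the median gene (4 of 9, beside 6.22%), with 0 lower, beside 11.9%. The cells behind this class were few and of unlike depth, 86 in Ctrl with a median of 12574 UMIs and 271 in cKO with a median of 1706.

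In PreNeu-like cells 0 of the 9 genes were higher by 1.5-fold, beside 0.682% of 2201 genes, and 0 were lower, beside 11.4%. In imNeu-like cells 0 were higher, beside 1.21% of 1982 genes, and 0 were lower, beside 15.8%. Relative to the median gene, *Lcn2* and *Pglyrp1* were higher in PreNeu-like cells (2 of 9, beside 3.36% of genes), *Lyz2* joined them in imNeu-like cells (3 of 9, beside 4.99%), and 0 of 9 were lower in either class, beside 2.64% and 5.3%.

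*Lcn2*, *Pglyrp1*, *Lyz2* and *Ngp* had ratios of CPM above 0 in every class from PreNeu-like cells on. Other genes had ratios above 0 in some of these classes only. *Cd177* differed by 0.13 (0.11 to 0.16) in PreNeu-like and by 0.19 (0.15 to 0.24) in mNeu-like cells. *Ltf* differed by 0.21 (0.19 to 0.24) in mNeu-like cells and *Fcnb* by 0.69 in imNeu/mNeu cells. In imNeu-like cells *Lcn2* stood at 16366 CPM in Ctrl and 22779 CPM in cKO, a log2 ratio of 0.48 (0.46 to 0.49), or 0.73 over the median gene. *Lyz2* differed by 0.45 (0.44 to 0.47), or 0.71 over the median gene, *Pglyrp1* by 0.41 (0.38 to 0.44), or 0.67, and *Ngp* by 0.30 (0.29 to 0.31), or 0.56. All 4 were above 0 in each of the 4 classes from PreNeu-like to mNeu-like and under each of the 10 alternative settings tried. In CPM of lymphoid and erythroid cells the same genes were lower in cKO, with log2 ratios of -0.33 for *Lcn2*, -0.59 for *Lyz2*, -0.31 for *Pglyrp1* and -0.90 for *Ngp*. Without the highest cell of each library these ratios were -0.84, -0.97, -0.80 and -1.25. In UMIs per cell, with all cells kept, the genes were higher in cKO there, by 1.13, 0.87, 1.15 and 0.56 in log2. The pools differed in depth (medians of 3163 and 10763 UMIs) and in make-up. MEP-like cells were 418 of 1302 in Ctrl and 89 of 143 in cKO. The part of depth and make-up in these ratios was not tested.

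In PreNeu-like and imNeu-like cells *Camp*, *Ltf* and *Chil3* had small negative ratios whose sign changed with median-of-ratios scaling and in UMIs per cell. In imNeu-like cells *Camp* stood at 56389 CPM in Ctrl and 52466 CPM in cKO, a log2 ratio of -0.10 (-0.11 to -0.10), which became 0.15 relative to the median gene. *Ltf* gave -0.03 and 0.22 on these scales, and *Chil3* -0.17 and 0.08. *Cd177* and *Fcnb* gave 0.00 and 0.01, with intervals that spanned 0, and both were 0.26 relative to the median gene. The median of the 9 genes was 0.01, or 0.26 above that of all genes. In UMIs per cell the same median was 0.99, with cKO imNeu-like cells holding more UMIs in total.

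A ratio of 2 of the genes within a library needs no scaling. There were 0.290 *Lcn2* UMIs for each *Camp* UMI in Ctrl imNeu-like cells and 0.434 in cKO, a log2 difference of 0.58 (0.57 to 0.60). The ratio was 0.114 and 0.194 in ProNeu-like, 0.0632 and 0.102 in ProNeu/PreNeu, 0.195 and 0.287 in PreNeu-like, 0.371 and 0.567 in imNeu/mNeu, and 0.847 and 1.56 in mNeu-like cells. The lymphoid and erythroid cells held the pair at 0.452 and 0.584, a log2 difference of 0.37 (0.26 to 0.47), which was 0.43 (0.31 to 0.56) without the highest cell of each library. The *Lcn2* to *Camp* ratio was thus higher in cKO in each class compared and in the background, and the part of the background in it was not tested. *Ngp* to *Camp* differed by 0.41 (0.39 to 0.42) in imNeu-like cells and by -0.20 (-0.29 to -0.11) in the background, or by 0.03 (-0.07 to 0.14) without the highest cell of each library.

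In the late classes the comparison rests on cells that the libraries did not share. Clusters computed without the 9 genes put 98.4% of cKO and 91.0% of Ctrl imNeu/mNeu cells, and 100% of the mNeu-like cells of both, into clusters drawn at least 80% from 1 library. In PreNeu-like cells this held for 9.61% of Ctrl and 21.3% of cKO cells, and in imNeu-like cells for 31.0% and 42.9%. In imNeu/mNeu cells *Fcnb* was the 1 gene higher by 1.5-fold in CPM, beside 1.62% of 2222 genes, and 0 were lower, beside 24.7%. Its Ctrl level there, 63.1 CPM, lay within the 43.5 to 84.7 CPM of the Ctrl background classes. The cKO level, 102 CPM, lay above the 17.8 to 79.5 CPM of the cKO ones. The log2 ratio of *Fcnb* in this class was 0.69, and -0.14 with a stricter gate. Relative to the median gene, *Ngp*, *Lcn2*, *Fcnb*, *Pglyrp1* and *Lyz2* were higher (5 of 9, beside 7.88%) and 0 were lower, beside 5.13%. In mNeu-like cells *Lcn2* was higher in CPM, beside 2.67% of 2326 genes, and *Chil3* and *Fcnb* were lower, beside 22.2%. Relative to the median gene, *Ngp*, *Lcn2*, *Pglyrp1* and *Lyz2* were higher (4 of 9, beside 8.08%) and *Fcnb* was lower (1 of 9, beside 5.76%). *Lcn2* there was 5871 CPM in Ctrl and 10148 CPM in cKO, a log2 ratio of 0.79 (0.77 to 0.81). *Chil3* there was 571 and 369 CPM, a log2 ratio of -0.63, or -0.29 relative to the median gene, and *Ltf* was 3198 and 3707 CPM, a ratio of 0.21. The mNeu-like levels of *Fcnb* lay within the range of the background classes, and the pooled background differed between the libraries by -1.31 in log2, or -2.02 without the highest cell of each, so its ratio of -1.54 is not read as a change in expression.

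**Figure D5:**
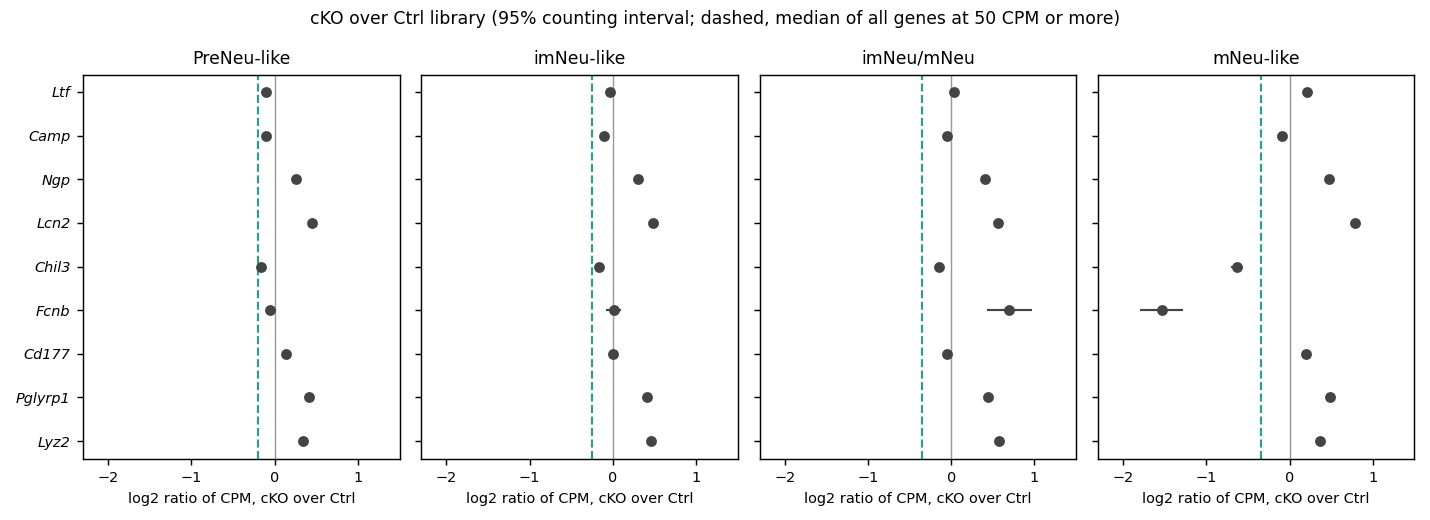
Log2 ratio of CPM, cKO over Ctrl, of each gene in 4 neutrophil classes (points), with exact 95% intervals for counting error, and the median of all genes of 50 CPM or more (dashed line). *Lcn2*, *Pglyrp1*, *Lyz2* and *Ngp* lie above 0 in each class from PreNeu-like to mNeu-like, while *Camp* lies between -0.11 and -0.05 in them.

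Along the continuous order, the 9 genes took a larger share of UMIs in cKO in 9 of 10 groups. The share in groups 6 to 8 was 13.7%, 8.62% and 5.02% in Ctrl and 16.5%, 14.4% and 10.5% in cKO. In percentage points these were the widest gaps of the order. The libraries did not fill these groups with the same classes. Group 7 was led by mNeu-like cells in Ctrl (52.5%) and by imNeu/mNeu cells in cKO (78%). In group 8 mNeu-like cells made up 89.8% in Ctrl and 55.6% in cKO. The part of this mix in the gaps was not tested. *Lcn2*, *Pglyrp1* and *Lyz2* were higher in cKO in 10 of 10 groups, *Ngp* and *Cd177* in 9, *Camp* and *Fcnb* in 6, *Chil3* in 5 and *Ltf* in 4. The log2 ratio of *Lcn2* less that of *Camp* ranged from 0.22 to 0.96 and was above 0 in 10 of 10. The groups hold different numbers of cells from each library, with 293 Ctrl and 739 cKO cells in the last.

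In ProMon-like cells *Lyz2* differed by 0.62 in log2 (0.61 to 0.64) and *Chil3* by 0.56 (0.50 to 0.62), both higher in cKO. In CPM the log2 ratios of their lymphoid and erythroid backgrounds were -0.59 and -0.84, or -0.97 and -1.89 without the highest cell of each library. In UMIs per cell, with all cells kept, these backgrounds were higher in cKO, by 0.87 and 0.62. The part of the background in the ProMon-like ratios was not tested. *Ltf*, *Camp* and *Ngp*, which lay at or below the pooled background in ProMon-like cells, gave ratios of -1.06, -1.02 and -0.98.

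Other granule and neutrophil genes were counted from lists chosen alongside the 9. Of 20 other secondary granule and secretory vesicle genes, 7 of which were also gate markers, 16 were measured in imNeu-like cells. *Ceacam10*, an adhesion molecule of the CEA family, was higher in cKO (82.5 CPM in Ctrl and 174 CPM in cKO, log2 ratio 1.07). *Olfm4*, which encodes the granule glycoprotein olfactomedin 4, was lower (269 and 154 CPM, -0.80), and the rest differed by less than 1.5-fold. The list median was 0.12, or 0.37 relative to the median gene. Of all 1982 genes measured in imNeu-like cells, 1.21% were higher and 15.8% were lower by 1.5-fold. *Olfm4* was lower in all 4 classes from PreNeu-like to mNeu-like, with log2 ratios of -0.63, -0.80, -1.32 and -0.90. Of 5 primary granule genes measured in imNeu-like cells, 0 were higher and 2 were lower, beside the same shares of all genes. Their median was -0.53, or -0.27 relative to the median gene. Of 8 gelatinase granule and late neutrophil genes 2 were higher and 1 was lower, with a median of 0.09, or 0.34 relative to the median gene. *Retnlg* had the highest ratio of these (1.02) and *Mmp8* the lowest (-0.80). Most genes of these last lists were also used in the gates (7 of 9 and 8 of 9). *Cebpe*, which encodes C/EBPε, went along the line from 582 CPM in Ctrl and 579 CPM in cKO in PreNeu-like cells to 534 and 494 CPM in imNeu-like and 132 and 76.0 CPM in mNeu-like cells, but it was itself part of a gate. *Gfi1*, a repressor that acts in granulocyte development, had 56.5 and 29.0 CPM in PreNeu-like cells.

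The genes whose levels followed the mean of the 9 most closely were *S100a9* (Pearson's r of 0.96) and *S100a8* (0.95), the subunits of calprotectin, followed by *Chil1* (0.94), *Olfml2b* (0.94) and *Tnfsf13b* (0.92). These values are over 27 points, each a class in a library, on log2 of CPM plus 1. They were taken over 6844 genes outside the 9 and the gates. Over the 12 neutrophil points alone r was 0.90, 0.91, 0.87, 0.97 and 0.92 for these genes in the same order, with *Olfml2b* the highest of the 5. The points of a library share its depth and its background, so they are a description. *S100a9*, unlike *Camp* and like *Pglyrp1*, fell little at the late end. It was 168034 CPM in Ctrl imNeu-like and still 151339 CPM in Ctrl mNeu-like cells. Over the same classes *Camp* went from 56389 to 6934 CPM and *Pglyrp1* from 3334 to 3141 CPM.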

How the data were processed

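The authors deposited UMI counts per gene and barcode for 1 Ctrl and 1 cKO bone marrow library, made with Cell Ranger 5.0.0 on GRCm38 and filtered to cell barcodes, with no other normalization. Kept barcodes had between 200 and 9000 genes detected and no more than 30% of UMIs from mitochondrial genes, which left 9965 of 10220 (71527701 UMIs) and 6718 of 6872 (64393950 UMIs). The study removed doublets and states fewer cells than these. No doublet caller was run here, and 370 Ctrl and 125 cKO cells that met gates of 2 lineages were left unclassed. Cells were classed by marker UMIs per 10000 UMIs, with at least 5 marker UMIs. UMIs were summed by class and divided by the class total (CPM). Intervals are 95% exact Poisson for CPM, Clopper-Pearson for shares, exact binomial for log2 ratios of CPM, and approximate for log2 differences of gene ratios. They cover counting error only. A fixed rule set which genes could be named: the 9 genes, *Map4k4*, the extreme genes of each list, and the 5 genes most like the mean of the 9. Not every extreme gene is named. Near copies, *Cebpe* and *Gfi1* belong to these lists and were named after their values were seen. The 9 genes and all lists were chosen with earlier results of these data known. Cell filters, gates, clusters, weighting, scaling, minimum CPM, thinning and grouping were varied, and the highest cell of the pooled background was left out. The sums, intervals and ratios were tested on simulated data. Gene positions came from GENCODE vM21, which holds 32158 of the 32285 gene identifiers, and windows from RefSeq. Python 3.11.15, numpy 2.4.6, scipy 1.17.1, pandas 2.3.3 and igraph 0.11.9 were used.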

Additional observations from a re-analysis of the deposited data

Results flagged for a closer look

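*Fcnb* differed in opposite directions in neighbouring late classes: its log2 ratio of cKO over Ctrl was 0.69 in imNeu/mNeu cells (63.1 and 102.2 CPM) and -1.54 in mNeu-like cells (63.3 and 21.8 CPM). The difference between the classes was not tested. The lymphoid and erythroid level was 50.5 CPM in Ctrl and 20.3 CPM in cKO, or 46.8 and 11.5 CPM without the highest cell of each, and the part of this background in either ratio was not tested.

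The 9 genes also gave UMIs in cells outside every class. In cells with a mixture of neutrophil marker lists they took 6.76% of UMIs in Ctrl (264 cells) and 7.81% in cKO (781 cells), above the shares in lymphoid and erythroid cells. In the 255 Ctrl and 154 cKO barcodes left out by the filters on genes and mitochondrial UMIs they took 1.4999% and 1.74%.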

How the results depend on the processing

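No paired analysis was possible because each group is 1 library. Of 36 log2 ratios of cKO over Ctrl (9 genes in 4 classes), 19 kept their sign in all 10 alternative settings and 28 in the 7 that change how cells are handled. *Ngp*, *Lcn2*, *Pglyrp1* and *Lyz2* kept theirs in all 4 classes. The settings that change the scaling raised every ratio in these classes, so they could change the sign of negative ratios only. Reversals past 1.5-fold in the main value were *Chil3* in mNeu-like cells, 0.71 in UMIs per cell, and *Fcnb* in imNeu/mNeu cells, -0.14 with a stricter gate. The cause was not tested. *Lyz2* became highest in ProMon-like cells under the mean of per-cell proportions in both libraries, and in cKO under the stricter gate and under clusters.

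In imNeu-like cells the share of UMIs from the 9 genes was, for Ctrl and cKO, 15.8% and 17.6% with at least 500 genes per cell, 15.8% and 17.6% with at least 1000 UMIs, 15.9% and 17.7% with at least 2000 UMIs (chosen after seeing the data), 16.1% and 17.9% with a stricter gate, 14.7% and 14.8% as the mean of per-cell proportions, and 16.02% and 18.02% with clusters. The median log2 ratio of the 9 genes was 0.017, 0.016 and 0.025 with these 3 filters, 0.011 with at most 10% mitochondrial UMIs, 0.10 with the stricter gate, -0.028 with per-cell proportions, 0.28 with clusters, 0.26 with median-of-ratios scaling, 0.038 with a denominator without the 9 genes and 0.99 in UMIs per cell. Less the median of all genes, it was 0.27, 0.27, 0.27, 0.26, 0.34, 0.21 and 0.52 for the first 7 of these, in the same order, and 0.48 with no minimum CPM. *Lcn2* less *Camp* was 0.60 with per-cell proportions and 0.56 with clusters. Genes higher by 1.5-fold went from 24 to 47 with per-cell proportions, 99 with median-of-ratios, 1332 in UMIs per cell and 477 with no minimum CPM. Genes lower went from 314 to 105, 9 and 4383 under the last 3. *Fcnb* was detected in 15.7% of Ctrl and 13.0% of cKO cells thinned to 500 UMIs. With 5 groups along the order, the centres were 27.7% and 27.0% for *Fcnb* and 57.4% and 57.2% for *Pglyrp1*. Small classes limit what depth can show: cKO has 143 lymphoid and erythroid cells behind its background levels.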
